A study of Mus musculus with 7 samples.

Results

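The ion exchangers and cotransporters described here are the members of 9 solute carrier (SLC) families that move bicarbonate, protons, chloride, calcium and phosphate across membranes. They were chosen by gene symbol, as every named probe of the Slc4, Slc8, Slc9, Slc12, Slc17, Slc20, Slc24, Slc26 and Slc34 families apart from Slc4a1, Slc26a4 and Slc26a9. This gave 79 probes for 52 genes, of 25697 probes and 16593 named genes on the Illumina mouse bead array. The symbols also take in 3 genes that are not transporters: Slc4a1ap, the adaptor kanadaptin, and Slc9a3r1 and Slc9a3r2, the scaffolds NHERF1 and NHERF2 that tie transporters and receptors to the cell cortex.

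Whole lungs were compared between claudin-18 knockout mice (3 arrays) and wild-type mice (4 arrays). The knockout was ubiquitous: a floxed Cldn18 allele was crossed to CMV-cre deleter mice, which removed exons 2 and 3. Mice of both genotypes were untreated males of 3 to 4 months, and their mixed background combined Balb/c, C57BL/6J and 129S6/SvEvTac. The labels do not say whether the wild-type mice were littermates or carried Cre, nor do they tie each array to an animal of its own. The p-values thus reflect the spread among these samples alone, which may be technical. The labels speak of 4 replicates per genotype, while 3 knockout arrays were compared here. All array names share a leading number, followed by the letters A, B and D for the knockout and E to H for the wild type. Genotype and this lettered position cannot be told apart.

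SLC exchangers and cotransporters use the gradient of one ion to drive another, without hydrolysing ATP themselves. In epithelia they set the pH of the cell and of the fluid on its surface, and they load the chloride that leaves through apical channels. In the lung, the basolateral sodium-potassium-chloride cotransporter Slc12a2 supplies chloride for secretion, and the sodium-phosphate cotransporter Slc34a2 of alveolar type 2 cells takes up phosphate released from surfactant. The series title names alveolar fluid homeostasis, and the comparison asks which of these carriers differ in transcript level when claudin-18, a tight junction protein, is missing.

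The arrays were checked on the targeted gene first. Cldn18 gave signals of 1875, 1030 and 935 in knockout lungs, against 18072, 14718, 27990 and 19666 in wild-type lungs, a log2 change of -3.71 (SE 0.19, limma adjusted p = 4.2e-05). Detected probes, those with a detection p under 0.01, ran from 10291 to 11715 per knockout array and from 11211 to 12376 per wild-type array. The median signal ran from 259 to 349 per knockout array and from 355 to 468 per wild-type array. The whole lung label went with the markers, since probed markers of several lung cell types were detected on at least 3 arrays. These were 10 of 10 alveolar type 2, 5 of 5 ciliated, 8 of 9 endothelial and 7 of 8 smooth muscle and pericyte genes. By limma at an adjusted p of 0.05, 8.87% of the 11902 probes tested differed (472 higher and 584 lower in the knockout). Without knockout 2 these counts were 140 and 193, without knockout 3 they were 243 and 270, without knockout 1 the higher count was 272, and without wild type 2 it was 297. Of the calls, 44.7% were higher, against 23% with median scaling in place of quantile normalization, which moved the median change of all probes by -0.158.

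Most of these carriers were near or below the detection limit in whole lung. Of the 79 probes, 44 were detected on no array, 5 on 1 or 2 arrays, 10 on 3 to 6 arrays and 20 on all 7. A probe was tested when it was detected on at least 3 arrays, which left 30 probes for 23 genes. That is 38% of the probes of these families, beside 46.3% of all probes on the array. The arrays differed little in this respect, with 29, 24 and 23 of the 79 probes detected in the knockout lungs, against 31, 23, 26 and 24 in the wild-type lungs.

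**Figure D1:**
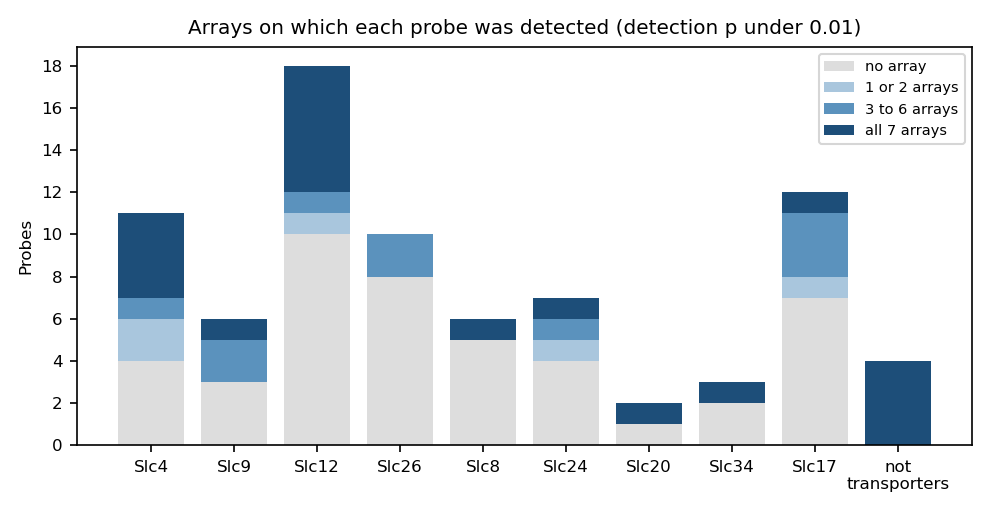
Number of probes (vertical axis) in each SLC family and among the 3 genes that are not transporters, shaded by the number of arrays on which the probe was detected. The Slc12 family has 6 probes detected on all 7 arrays, the Slc26 family has 0, and all 4 probes of the genes that are not transporters were detected on all 7.

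The 29 genes with no tested probe came from all 9 families. In the Slc4 family they were Slc4a4, the sodium-bicarbonate cotransporter of kidney and pancreas, with Slc4a9, Slc4a10 and Slc4a11. The proton exchangers Slc9a4 and Slc9a7 and the Slc12 family members Slc12a4, Slc12a5 and Slc12a8 were in the same class. So were the Slc26 family members Slc26a1, Slc26a3, Slc26a5, Slc26a6, Slc26a7 and Slc26a11, and the calcium exchangers Slc8a2, Slc8a3, Slc24a1, Slc24a2 and Slc24a5. Among phosphate carriers, Slc20a1, Slc34a1, Slc34a3, Slc17a1, Slc17a3 and Slc17a4 were not tested, nor were the vesicular carriers Slc17a6, Slc17a8 and Slc17a9 that load glutamate or nucleotides. A probe below the limit gives a bound on the signal and does not show that the transcript is absent.

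Slc17a2 was the gene of these families that passed the test. Both of its probes were higher in the knockout, and the other 28 tested probes did not pass in either direction. The 2 calls of 30 (6.67%) stand beside 8.87% of all probes tested. In the higher direction the members had 2 calls and all probes 3.97%, and in the lower direction they had 0, beside 4.91% of all probes. The members' share of calls was thus near that of the array as a whole. The genotypes were also seldom separated, with no overlap between knockout and wild-type levels for 3 of 30 probes (10%), beside 25.7% of all probes tested. The knockout lay above for 2 of these 3 (13.3% of all probes) and below for 1 (12.4% of all probes). A change of at least 2-fold, whether or not it passed, was measured for 3 of 30 probes, beside 5.19% of all. At an unadjusted p under 0.05 there were 4 of 30 member probes, beside 25.8% of all probes.

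Slc17a2 encodes a sodium-phosphate cotransporter of the type I group, whose members also carry urate and other organic anions and are best known from kidney and liver. Probe ILMN_1217058 gave signals of 626, 495 and 495 in knockout lungs, against 407, 348, 351 and 437 in wild-type lungs. Probe ILMN_2595395 gave 402, 389 and 389 in knockout lungs, against 336, 272, 277 and 379 in wild-type lungs. The knockout signals were the higher ones although the knockout arrays had the lower median signals, and both probes were detected on 3 knockout arrays and on 0 wild-type arrays. On the whole array, 20 probes had this pattern of detection, these 2 among them, and all 20 passed the test. A probe that enters the test through the knockout arrays alone is bound to differ, so its call is not independent of the detection filter. With no filter on detection, the adjusted p was 0.000611 for ILMN_1217058 and 0.00298 for ILMN_2595395.

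The detection limit differs between arrays, so each signal was also set against the lowest signal detected on its own array. For ILMN_1217058 this ratio was 1.67, 1.69 and 1.40 in the knockout, against 0.869, 0.92, 0.917 and 0.854 in the wild type. For ILMN_2595395 it was 1.07, 1.33 and 1.10 in the knockout, against 0.716, 0.72, 0.724 and 0.739 in the wild type. The groups did not overlap for either probe, and all knockout signals lay above the limit of their array but close to it.

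After background correction and quantile normalization, ILMN_1217058 stood at 8.37, 8.91 and 8.74 in the knockout, against 5.96, 6.33, 6.28 and 6.07 in the wild type (log2 intensity). The change was 2.51 (SE 0.18, 95% interval 2.10 to 2.92, limma adjusted p = 0.00032), and the exact permutation p was 0.0286, the smallest that 3 and 4 arrays allow. ILMN_2595395 stood at 7.07, 8.26 and 7.81 in the knockout, against 5.30, 5.29, 5.41 and 5.47 in the wild type. Its change was 2.34 (SE 0.25, 95% interval 1.78 to 2.91, limma adjusted p = 0.00136).

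Since no wild-type array measured the transcript above background, the fold is a bound. On the background-corrected scale, with each wild-type array raised to its own detection limit, Slc17a2 was at least 3.85-fold higher by ILMN_1217058 and at least 1.98-fold higher by ILMN_2595395. These bounds hold for that scale alone. The size depends on how background is treated: the log2 change of ILMN_1217058 was 0.98 with no background correction and 0.71 with the authors' values, and that of ILMN_2595395 was 0.80 and 0.53. The call itself held in each of these, with adjusted p-values from 0.00076 to 0.0109. Neither probe is tested when detection on all 7 arrays is required.

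Slc17a2 lies on chromosome 13 in a row with Slc17a3, Slc17a1 and Slc17a4, its close relatives, next to histone genes (order in the RefSeq annotation of mouse GRCm38). Slc17a1 and Slc17a4 have 1 probe each and Slc17a3 has 3, and all 5 were detected on no array of either genotype. Their signals were 0.540 to 0.878 of the lowest detected signal in the knockout and 0.621 to 0.934 in the wild type, all below the limit. For ILMN_1249661 and ILMN_2751771 of Slc17a3 the normalized levels of the 3 knockout arrays all lay above those of the 4 wild-type arrays, although no array detected either probe. Untested probes of other families separated too. ILMN_1224808 of Slc26a7 and ILMN_2756550 of Slc12a3 lay above, while ILMN_3124491 of Slc12a1, ILMN_3068197 of Slc12a2 and the Slc24a5 probe lay below. Set against the limit of each array, ILMN_2751771 overlapped, at 0.848 to 0.878 in the knockout and 0.794 to 0.869 in the wild type. How many untested probes of the whole array separate in this way was not counted. Of the genes within 20 places of Slc17a2 on either side, 24 other genes have a named probe and 4 of them were tested (Hfe, H1f2, H2bc3 and H2bc4), with 0 passing. The sequences of the probes were not used here, so hybridization to a related transcript of the row was not tested.

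**Figure D2:**
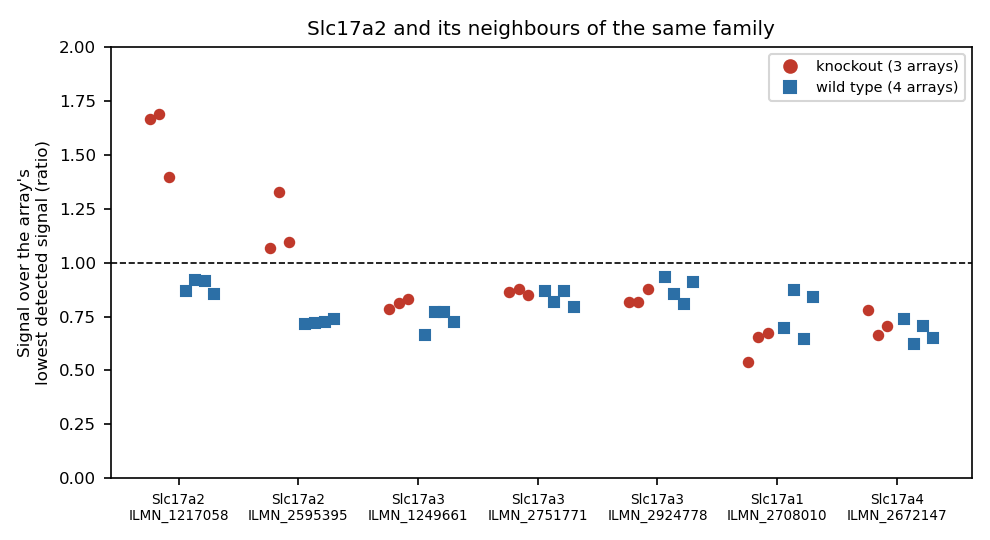
Signal of each probe of Slc17a2, Slc17a3, Slc17a1 and Slc17a4 divided by the lowest detected signal of the same array (vertical axis, ratio; the dashed line is 1), with the 3 knockout arrays as red circles left of the 4 wild-type arrays as blue squares. The Slc17a2 probes lie above the line on every knockout array and below it on every wild-type array, while the probes of the 3 neighbours lie below it on all 7 arrays.

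The promoters of Slc17a2 and of its neighbour Slc17a3 are shown because one gene was detected in the knockout and the other on no array. Each window runs from 250 bases before to 50 bases after the RefSeq start (mouse GRCm38.p6, plus strand, 5′ to 3′). Slc17a2 is at chr13:23806743-23807042 and Slc17a3 at chr13:23839184-23839483. Capitals mark matches to 6 motifs searched on both strands: the TATA box TATAAA, the CAAT box (its letters CCAAT), the palindromic E-box CACGTG, the AP-1 site TGANTCA, the palindromic C/EBP site TTGCGCAA and the GC box GGGCGG.
Slc17a2: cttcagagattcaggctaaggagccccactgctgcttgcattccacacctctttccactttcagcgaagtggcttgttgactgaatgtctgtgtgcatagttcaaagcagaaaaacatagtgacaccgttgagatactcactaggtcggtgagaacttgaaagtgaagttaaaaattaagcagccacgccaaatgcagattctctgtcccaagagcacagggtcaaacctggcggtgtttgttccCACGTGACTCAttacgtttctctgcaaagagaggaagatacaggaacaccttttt
Slc17a3: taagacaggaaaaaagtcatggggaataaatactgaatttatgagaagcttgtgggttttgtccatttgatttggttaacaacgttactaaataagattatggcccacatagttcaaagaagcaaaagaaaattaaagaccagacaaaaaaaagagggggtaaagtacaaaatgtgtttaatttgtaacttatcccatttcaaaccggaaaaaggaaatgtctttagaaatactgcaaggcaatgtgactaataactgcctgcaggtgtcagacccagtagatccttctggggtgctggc

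The Slc17a2 window holds 1 E-box and 1 AP-1 letter match, which overlap: the E-box covers bases 246 to 251 and the AP-1 match bases 250 to 256 of the 300. Of 32851 promoter windows of this length, 7.15% hold the E-box and 7.81% the AP-1 letters. Among 24 windows of the tested genes of these families, that of Slc17a2 included, 5 hold the E-box and 3 the AP-1 letters. The Slc17a3 window holds 0 of the motifs searched. GC content was 46% for Slc17a2 and 36.7% for Slc17a3, beside a median of 52.7% over all windows. These are matches of letters and do not show that a factor binds there.

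The other phosphate carriers did not pass. Slc34a2, the apical sodium-phosphate cotransporter of type 2 cells, stood at 12.59, 12.81 and 12.33 in the knockout, against 12.37, 12.13, 12.57 and 12.17 in the wild type. The groups overlapped, and the change of 0.27 had a 95% interval from -0.14 to 0.67 (limma adjusted p = 0.393), which leaves out a change of 2-fold. Its promoter is shown for contrast with that of Slc17a2, at chr5:53049103-53049402 (GRCm38.p6, plus strand), with capitals for the only motif match found.
Slc34a2: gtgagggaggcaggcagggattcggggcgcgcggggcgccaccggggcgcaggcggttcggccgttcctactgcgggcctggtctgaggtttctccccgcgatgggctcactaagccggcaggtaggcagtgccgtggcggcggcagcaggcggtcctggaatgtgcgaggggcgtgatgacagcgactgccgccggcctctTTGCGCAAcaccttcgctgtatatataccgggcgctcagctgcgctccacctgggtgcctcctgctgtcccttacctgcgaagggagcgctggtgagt

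The match is the palindromic C/EBP site TTGCGCAA at bases 203 to 210, letters that 0.183% of all windows hold. The Slc34a2 window has 30 CpG pairs and 68.7% GC, against 7 CpG pairs for Slc17a2. Among the type 2 markers, 2 of 10 were higher in the knockout (Napsa and Sftpa1), beside 3.97% of all probes tested. Of these markers 0 were lower, and the median change was 0.41. Their summed normalized intensity ran from 344116 to 371281 in the knockout and from 286473 to 302928 in the wild type, and their part in the Slc34a2 value was not tested. Much of that sum came from very bright probes. Over all arrays, signals were 67528 to 72749 for Sftpd and 69549 to 73070 for ILMN_1252076 of Lyz2. Probes this bright varied little between arrays and may not show a change. In whole lung, more cells of a type and more RNA per cell cannot be told apart.

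Slc20a2, the housekeeping phosphate carrier PiT2, gave -0.39 (95% interval -0.91 to 0.12, adjusted p = 0.321). Its levels were 9.71, 9.63 and 9.57 in the knockout, against 10.52, 10.26, 9.67 and 9.66 in the wild type, so wild type 1 and 2 lay above all other arrays. Of the remaining Slc17 genes, Slc17a5, the lysosomal sialic acid exporter sialin, gave -0.28 (adjusted p = 0.315). Slc17a7, a vesicular glutamate carrier of neurons, gave 0.13 (adjusted p = 0.775) with detection on 1 knockout array and 2 wild-type arrays.

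Bicarbonate transport was represented by 3 tested genes. Slc4a2 encodes AE2, the chloride-bicarbonate exchanger that most epithelial cells use to take in chloride and export base. Its levels were 11.50, 11.48 and 11.40 in the knockout, against 12.03, 11.31, 11.26 and 11.91 in the wild type, and its change of -0.17 (95% interval -0.66 to 0.33) did not pass (adjusted p = 0.672). The knockout arrays lay inside the range of the wild-type arrays. Slc4a8, a sodium-driven exchanger of chloride for bicarbonate, gave 0.20 (adjusted p = 0.674).

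Slc4a3, the related exchanger AE3 of heart and brain, came closest to the threshold among the probes that missed it, by 1 of its 4 probes. ILMN_2675026 stood at 6.20, 5.45 and 6.42 in the knockout, against 7.60, 7.39, 7.17 and 6.45 in the wild type. It was detected on 0 knockout arrays and 3 wild-type arrays, all knockout arrays lay below all wild-type arrays, and knockout 3 and wild type 4 were nearly level. The probe thus entered the test through the wild-type arrays alone, so its p-values are not independent of the detection filter. On the whole array, 333 probes were detected on no knockout array and on at least 3 wild-type arrays, 3 of them members. Of the 333, 108 passed as lower. The change was -1.13 (SE 0.31, 95% interval -1.82 to -0.43, limma adjusted p = 0.0522, exact permutation p = 0.0571). No knockout level was above background, and wild type 4 was not detected either, at 0.916 of the lowest detected signal of its array. No bound on the fold is thus given.

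The other tested probes of Slc4a3 gave changes near 0. ILMN_2675029 stood at 8.74, 8.91 and 9.01 in the knockout, against 9.36, 8.67, 8.74 and 8.92 in the wild type, a change of -0.04 (adjusted p = 0.929). ILMN_2782061 gave -0.10 (adjusted p = 0.784), and both were detected on all 7 arrays. The fourth probe, ILMN_2593621, was detected on no array. The near miss of ILMN_2675026 moved across the threshold with the setting: its adjusted p was 0.0256 without wild type 4, 0.0484 with a normexp offset of 50, 0.0329 with median scaling and 0.0497 with robust fitting of a variance trend. It was 0.189 without knockout 2, 0.0994 with no background correction and 0.143 with the authors' values, where the change was -0.23.

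Proton exchange was covered by Slc9a8 and Slc9a9, which exchange sodium or potassium for protons in the Golgi and in endosomes. Slc9a8 gave opposite values by its 2 tested probes. ILMN_2626535 stood at 7.04, 7.29 and 7.74 in the knockout, against 7.37, 6.25, 6.64 and 6.24 in the wild type, so that wild type 1 lay within the knockout range. Detection was on 3 knockout arrays and 2 wild-type arrays, and its change was 0.73 (95% interval 0.08 to 1.38, adjusted p = 0.152).

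ILMN_1230339, detected on all 7 arrays, gave -0.21 (adjusted p = 0.626). The change of ILMN_1230339 minus that of ILMN_2626535 was -0.94, with an exact permutation p of 0.114 (0.304 after Benjamini-Hochberg adjustment over 8 pairs of probes in 6 genes). Without wild type 1 the change of ILMN_2626535 was 0.98 and passed (adjusted p = 0.0369). Slc9a9 stood at 6.74, 6.27 and 5.84 in the knockout, against 7.22, 7.05, 6.81 and 6.37 in the wild type, a change of -0.58 (95% interval -1.16 to 0.01, adjusted p = 0.198). It was detected on 0 knockout arrays and 3 wild-type arrays, and with its knockout arrays raised to the limit no fold could be given. Slc9a9 too entered the test through the wild-type arrays alone.

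**Figure D3:**
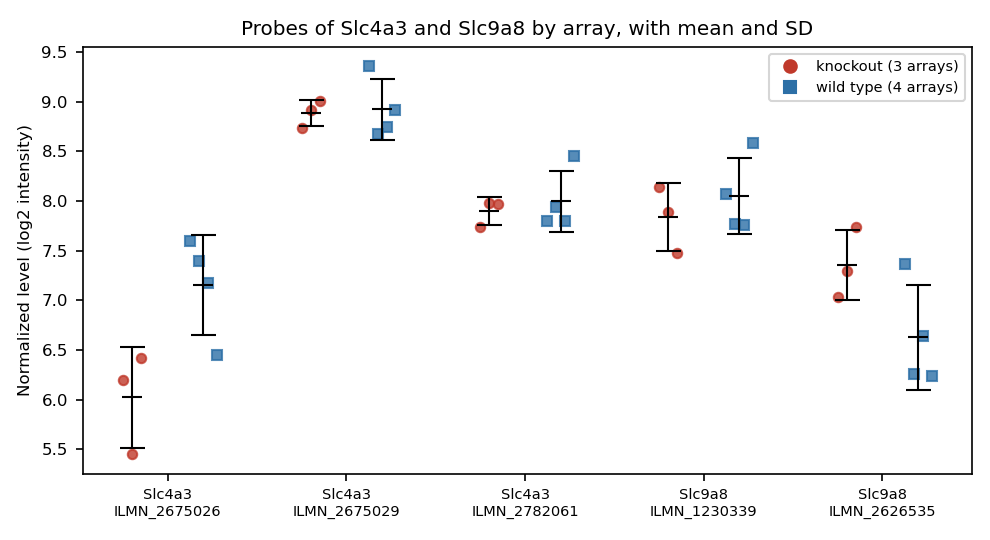
Normalized level of each tested probe of Slc4a3 and Slc9a8 (vertical axis, log2 intensity), with the 3 knockout arrays as red circles left of the 4 wild-type arrays as blue squares; black marks are the mean and SD. Only ILMN_2675026 of Slc4a3 separates the groups, with wild type 4 at 6.45 just above knockout 3 at 6.42, and its sister probes overlap between the groups.

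The scaffolds of the sodium-proton exchangers were measured well above background but did not pass. Slc9a3r1 gave -0.03 (95% interval -0.46 to 0.40, adjusted p = 0.944). Slc9a3r2 stood at 13.25, 13.28 and 13.40 in the knockout, against 13.90, 13.39, 13.67 and 13.51 in the wild type by ILMN_2710274, a change of -0.31 (adjusted p = 0.284). Its other probe, ILMN_1218241, gave 0.02 (adjusted p = 0.969). Slc4a1ap gave -0.22 (adjusted p = 0.432).

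Cotransporters of chloride with sodium or potassium held 7 of the tested probes, and 0 passed. Slc12a2, the cotransporter NKCC1 that loads epithelial cells with chloride, stood at 13.96, 14.13 and 13.82 in the knockout, against 14.24, 13.48, 13.65 and 13.75 in the wild type by ILMN_2700059. The knockout arrays lay above 3 of the wild-type arrays and below wild type 1. The change was 0.19 (95% interval -0.26 to 0.64, adjusted p = 0.592), and that of ILMN_3146420 was 0.12 (95% interval -0.44 to 0.68, adjusted p = 0.793), so a 2-fold change lay outside both intervals.

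Slc12a3, the thiazide-sensitive sodium-chloride cotransporter best known from the kidney, was detected on all 7 arrays by ILMN_2797239 and gave 0.05 (95% interval -0.31 to 0.40, adjusted p = 0.879). Its other 2 probes were detected on no array. Slc12a1, the kidney relative NKCC2, gave 0.35 (adjusted p = 0.326), and its probe passed the detection limit on 1 knockout array and 2 wild-type arrays. Slc12a7, a potassium-chloride cotransporter that releases chloride, gave -0.29 (adjusted p = 0.372), and the probes of Slc12a9 gave 0.11 and -0.10 (adjusted p = 0.745 and 0.830).

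The anion exchangers of the Slc26 family beyond those left out were seen little. Slc26a2, a sulfate carrier needed for cartilage, gave 0.07 (95% interval -0.52 to 0.67, adjusted p = 0.887) and was seen on 0 knockout arrays and 3 wild-type arrays. Slc26a10 gave 0.27 (adjusted p = 0.449) and was seen on 1 knockout array and 2 wild-type arrays. Neither probe was detected on all 7 arrays, so these changes include levels not above background.

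Calcium exchange was covered by 3 genes, and 0 of them passed. Slc8a1, the sodium-calcium exchanger NCX1 of heart muscle, smooth muscle and many other cells, stood at 9.80, 9.88 and 9.27 in the knockout, against 10.25, 9.90, 10.16 and 9.82 in the wild type. Knockout 2 overlapped the wild type, and the change was -0.39 (95% interval -0.83 to 0.06, adjusted p = 0.256). Beside it, of the 7 heart muscle markers tested, which mouse pulmonary veins can carry, 0 passed, beside 8.87% of all probes tested. The median change of these markers was -0.37. Their summed normalized intensity ran from 33973 to 46811 in the knockout and from 46190 to 60747 in the wild type, and Pln and Ryr2 were not detected often enough to be tested.

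Slc24a3, a potassium-dependent sodium-calcium exchanger, gave -0.13 (95% interval -0.50 to 0.25, adjusted p = 0.676). Slc24a4, of the same kind, gave 0.34 (adjusted p = 0.492) and was seen on 2 knockout arrays and 2 wild-type arrays. Of the smooth muscle and pericyte markers, 3 of 7 tested were lower in the knockout, beside 4.91% of all probes tested. Their summed intensity ran from 39000 to 47688 in the knockout and from 54105 to 68872 in the wild type. Of the vascular endothelial markers, 7 of 8 were lower, beside the same 4.91% (median change -1.22). The summed intensity of the endothelial markers ran from 17705 to 19436 in the knockout and from 36680 to 48011 in the wild type, with Kdr not detected often enough to be tested. The part of these cells in the values of the calcium exchangers and of Slc9a3r2 was not tested.

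**Figure D4:**
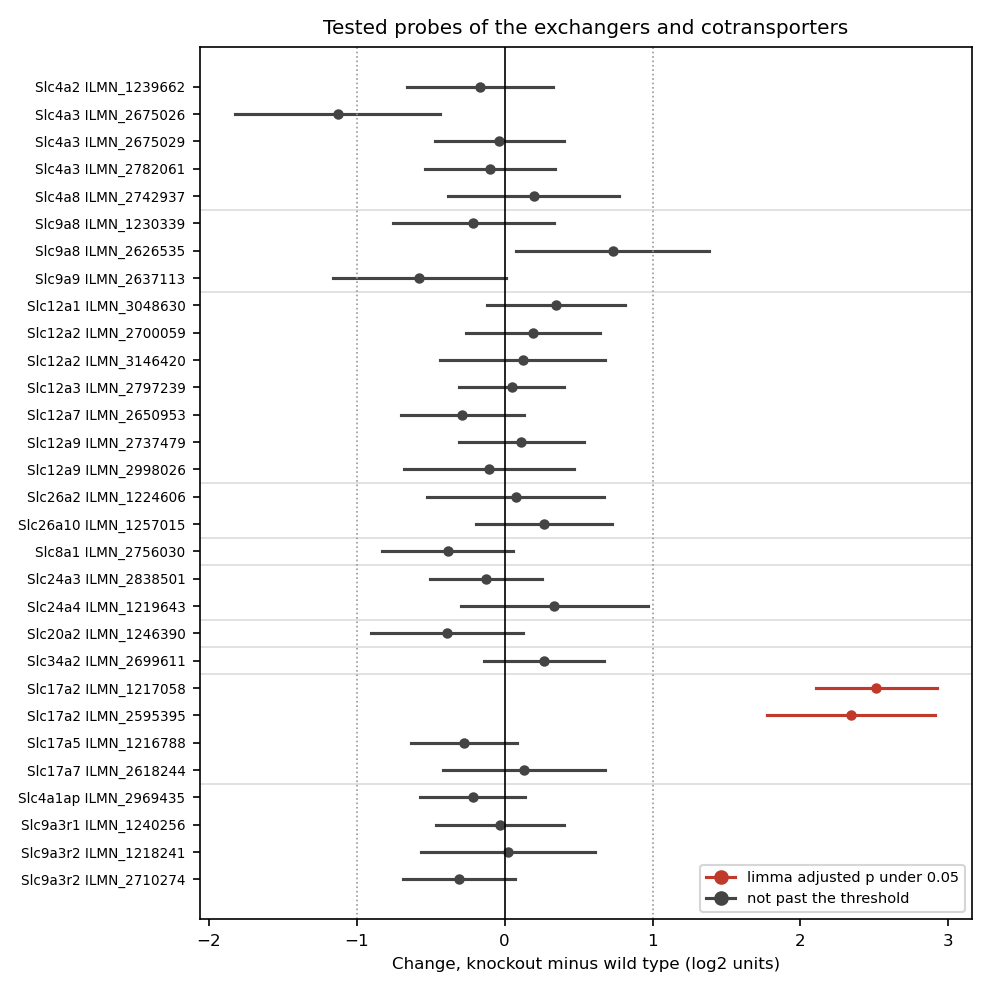
Change of each of the 30 tested probes, knockout minus wild type (horizontal axis, log2 units), with its 95% interval, ordered by family; dotted lines mark a 2-fold change. The 2 Slc17a2 probes in red lie at 2.51 and 2.34, and the intervals of 25 probes lie wholly within a 2-fold change in either direction. The 25 include probes not above background on some arrays.

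Across the 30 tested probes the changes ran from -1.13 to 2.51, 15 above 0 and 15 below, with a median of -0.003 beside 0.02 over all tested probes. The median size of a change, leaving out its sign, was 0.21, beside 0.27 over all. Precision was similar, with a median half-width of the 95% interval of 0.46 for these probes and 0.45 over all. For 25 of the 30 (83.3%, beside 74.8% of all tested probes) the interval lay within a 2-fold change in either direction. The other 5 were the probes of Slc17a2, ILMN_2675026 of Slc4a3, ILMN_2626535 of Slc9a8, and Slc9a9. For 7 probes the interval lay within a 1.5-fold change. The 25 include probes seen on few arrays, such as those of Slc12a1, Slc17a7, Slc26a2 and Slc26a10. Their changes include levels not above background, so these intervals do not bound the change in transcript.

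Proteins that work with these carriers were read from lists of partner genes, of which 31 were tested. By the brightest probe of each gene, 2 were higher (3.97% of all probes were) and 1 was lower (4.91% of all probes were). Hvcn1, the voltage-gated proton channel of phagocytes and B cells, rose by 0.79 (adjusted p = 0.0497) and by 0.74 (adjusted p = 0.0289) with its other probe. Of the macrophage markers, 1 of 3 tested was higher (Chil3), and their summed normalized intensity ran from 18243 to 18969 in the knockout and from 8639 to 13771 in the wild type. That sum is mostly Chil3, whose brightest probe had a mean level of 13.86 in the knockout and 12.98 in the wild type. Mrc1 (0.30, limma adjusted p = 0.441) and Adgre1 (0.55, limma adjusted p = 0.101) did not pass. Itgax, Marco and Siglecf were not detected often enough to be tested. Of the B and T lymphocyte markers, 1 of 5 tested was lower, the B cell gene Cd79a (-1.60, adjusted p = 0.0017), and their median change was -0.46. The part of these cells in the Hvcn1 value was not tested. Car11, a member of the carbonic anhydrase family without catalytic activity, rose by 0.76 (adjusted p = 0.0373). Its signals were 525, 328 and 406 in the knockout, against 526, 413, 474 and 499 in the wild type. The rise of Car11 thus appears only after correction and normalization. Xpr1, the phosphate exporter, fell by 0.67 (adjusted p = 0.0456). The calls of Hvcn1, Car11 and Xpr1 were not followed under the other settings.

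Car11 was the 1 gene to pass among 8 tested carbonic anhydrase genes, a family that makes the bicarbonate carried by Slc4 proteins. Of the WNK pathway, whose kinases switch the Slc12 cotransporters by phosphorylation, 0 of 5 genes passed. Of 7 exchanger regulators and scaffolds, 0 passed. Of 5 calcium pump genes, 0 passed by the brightest probe, but Atp2a3, a calcium pump of the endoplasmic reticulum, was lower by 2 of its 3 probes. ILMN_2638017 gave -0.87 (adjusted p = 0.0251), ILMN_2900462 gave -0.86 (adjusted p = 0.0253), and the brightest, ILMN_2688236, gave -0.80 (adjusted p = 0.109).

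**Figure D5:**
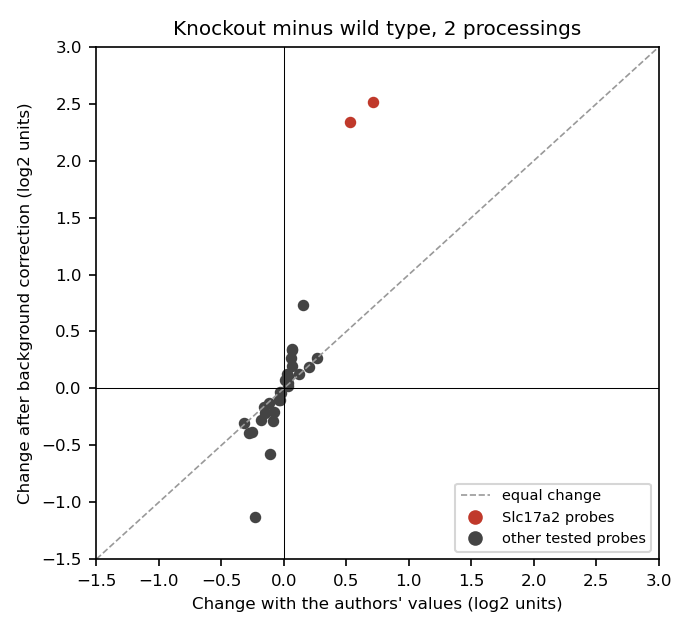
Change of each of the 30 tested probes, knockout minus wild type in log2 units, after background correction and quantile normalization (vertical axis) and with the authors' values (horizontal axis); the dashed line marks equal change. The change was smaller in size with the authors' values for 26 of the 30 probes, and the Slc17a2 probes in red, at 2.51 and 2.34 on the vertical axis, lie at 0.71 and 0.53 on the horizontal axis.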

How the data were processed

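Whole lung RNA was measured on 7 Illumina MouseRef-8 v2 arrays. Per the file headers, 1 deposited table holds linear mean bead intensities, and with each a detection p-value. The lowest deposited intensity was 114. The second table holds the authors' log2-like values. The submitters' processing notes name lumi 1.14.0 and R 2.11.1. The medians of these deposited values were the same on every array (8.65) and their exact transformation is unknown, so they were used as an alternative setting.

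Intensities were corrected with limma 3.58.1 (R 4.3.3): neqc with the background inferred from the detection p-values, an offset of 16, quantile normalization and log2. Probes detected (p under 0.01) on 3 or more arrays entered lmFit and eBayes, and p-values were adjusted by Benjamini-Hochberg across all 11902. No probe carried several symbols. Exact permutation tests used the 35 splits of 7 arrays and are two-sided. Precision is limited by the number of arrays. Each replicate left out kept the normalized values and tested probes. Other settings tried were no detection filter or detection on all 7 arrays, a normexp offset of 50, no background correction, median scaling, a variance trend with robust fitting, a replicate block and the authors' values. Scripts were tested on simulated data. Figures used matplotlib 3.10.9. Promoters came from RefSeq (GRCm38.p6), which held windows for 20 of the 23 tested genes.

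Members, gene lists and tests were chosen with earlier results of these data known. The rule for named genes takes every member with a probe past the threshold or with no overlap between genotypes, members whose probes disagree, the brightest tested gene of a family, Cldn18, partner genes that passed, and markers of the lists. Other tested members are given to account for each.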

Additional observations from a re-analysis of the deposited data

How the results depend on the processing

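The rise of Slc17a2 passed under 14 alternatives for ILMN_1217058 (change 0.71 to 2.67, adjusted p 2.96e-05 to 0.0039) and for ILMN_2595395 (0.53 to 2.67, adjusted p 9.45e-05 to 0.0126). Both probes entered the test through the knockout arrays alone, and fits with an array left out kept that set of tested probes. Except with no filter on detection, passing is thus not independent of the filter. Cldn18 passed throughout. Higher member probes became 0 with detection on all 7 arrays, where neither Slc17a2 probe is tested. Lower member probes, 0 as reported, became 1 (ILMN_2675026 of Slc4a3) with a normexp offset of 50, median scaling and a variance trend with robust fitting. They ran from 0 to 1 with single arrays left out. ILMN_2675026 entered the test through the wild-type arrays alone, so its passing is not independent of the filter. Over all probes the higher calls became 217 with median scaling, and single arrays left out gave 140 to 466 higher and 193 to 533 lower. Replicate numbers showed no sign of pairing: same-numbered arrays had correlations of their deviations of -0.0217, -0.00444 and -0.142. Arrays with different numbers ran from -0.106 to 0.122. So few arrays cannot exclude a pairing. With the replicate number as a block, on 3 arrays per genotype, 173 probes were higher and 228 lower, and 1 member probe was lower (ILMN_2675026, -1.365), as it was with wild type 4 merely left out.

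Changes that turned sign, none of which passed either way, were with median scaling Slc12a3 (-0.17), Slc12a9 (-0.0657), Slc26a2 (-0.0075), Slc4a8 (-0.0367) and Slc9a3r2 by ILMN_1218241 (-0.19), and with the replicate block Slc26a2 (-0.18), Slc4a3 by ILMN_2782061 (0.0503) and Slc9a3r1 (0.0926). With single arrays left out the changes that turned sign ran from -0.0413 to 0.33 for Slc12a2 by ILMN_3146420, -0.0318 to 0.18 for Slc12a3, -0.0406 to 0.23 and -0.30 to 0.0492 for the probes of Slc12a9, -0.0115 to 0.29 for Slc17a7, -0.18 to 0.21 for Slc26a2, -0.12 to 0.11 and -0.17 to 0.0503 for Slc4a3 by ILMN_2675029 and ILMN_2782061, -0.0622 to 0.46 for Slc4a8, -0.15 to 0.0926 for Slc9a3r1 and -0.29 to 0.30 for Slc9a3r2 by ILMN_1218241. The causes were not tested. Signal close to background limits what can be seen: 49 of the 79 member probes could not be tested.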
